A study of Mus musculus with 2 samples.

Results

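A set of 10 genes of CD8 T cells and cytotoxic lymphocytes was followed in splenic CD4+ T cells of DBA/1 and C57BL/6 mice: the CD8 chains Cd8a and Cd8b1, the killer lectin-like receptors Klrd1, Klrk1 and Klrg1, the granule-associated genes Nkg7, Ctsw and Gzmb, and the secreted or surface effector ligands Ccl5 and Fasl. Members were the probe sets whose only platform gene symbol was one of these 10, which gave 12 probe sets of the 20380 with 1 gene symbol, and 10 of 12393 genes. The DBA/1 group was 1 RNA sample of arthritis-susceptible mice and the C57BL/6 group was 1 RNA sample of arthritis-resistant mice. Both groups were immunised with glucose-6-phosphate isomerase (GPI), both were taken on day 7, and the spleen cells of both were sorted for CD4 with magnetic beads. Each sample was hybridised to 1 oligonucleotide array, so there was no replicate, no test and no measure of the variation between mice. The sources used here do not give age, sex or the number of mice behind each RNA sample, and no unimmunised sample was analysed here.

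CD8 is the co-receptor of T cells that read MHC class I, and it is made as a pair of alpha chains or as an alpha chain joined to a beta chain. CD8 T cells and natural killer (NK) cells kill by releasing granules that hold perforin and granzymes, or by showing Fas ligand to the target, and lectin-like receptors on their surface start or restrain that killing. CD4 T cells normally switch off the CD8 chains while they mature, but activated CD4 T cells can make granzyme B, Fas ligand, CCL5 and some of these receptors.

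Of the 10 genes, 8 had a lower signal in DBA/1 and 2 a higher one. The difference was at least 2-fold for 6 genes, all lower in DBA/1: Cd8b1, Nkg7, Klrd1, Fasl, Ccl5 and Klrk1. Gzmb and Klrg1 were the 2 with the higher DBA/1 signal, and neither reached 2-fold. Among all 6936 genes with a signal over the array median on at least 1 array, 1.90% were at least 2-fold lower in DBA/1 and 3.84% at least 2-fold higher, and 39.4% had a log2 ratio below 0. Split by signal, 4 of the 6 members that reached the 75th percentile of an array were at least 2-fold lower in DBA/1, as were 2 of the 4 dimmer ones (Cd8a, Gzmb, Klrk1 and Fasl). Over all genes these shares were 1.99% of the brighter and 1.79% of the dimmer genes lower, and 3.98% and 3.65% higher. With a limit of 1.5-fold, 7 members were lower and 2 higher, beside 5.97% and 11.8% of all genes. The members were chosen with the results of these arrays known, so the distance from that background is a description. The median log2 ratio (DBA/1 over C57BL/6) was -1.16 over the 10 genes and 0.10 over all 6936.

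Promoter sequence is shown for Nkg7 and Klrk1, which were lower in DBA/1, and for Gzmb, which was higher. These are the available windows that held a match to a motif named below. Those of Cd8a and Fasl, also lower in DBA/1, held none and are not shown. A RefSeq table of GRCm38.p6 held a promoter for 5 of the 10 genes. The 250 bases before the start of each gene are printed 5′ to 3′ on the gene's strand, from the C57BL/6J reference, and DBA/1 sequence was not used here. Capitals mark matches on either strand to TGTGGT (the RUNX motif), GGTGTGA (the T-box motif) or TGANTCA (the AP-1 motif). The windows lie at chr7:43436888-43437137 (plus strand) for Nkg7, chr6:129623865-129624114 (minus strand) for Klrk1 and chr14:56262335-56262584 (minus strand) for Gzmb.
Nkg7: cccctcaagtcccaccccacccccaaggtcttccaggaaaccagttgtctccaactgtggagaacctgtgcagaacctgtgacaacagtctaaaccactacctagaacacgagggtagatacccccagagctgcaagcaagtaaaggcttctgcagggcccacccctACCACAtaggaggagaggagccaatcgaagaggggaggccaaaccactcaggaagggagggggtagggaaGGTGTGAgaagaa
Klrk1: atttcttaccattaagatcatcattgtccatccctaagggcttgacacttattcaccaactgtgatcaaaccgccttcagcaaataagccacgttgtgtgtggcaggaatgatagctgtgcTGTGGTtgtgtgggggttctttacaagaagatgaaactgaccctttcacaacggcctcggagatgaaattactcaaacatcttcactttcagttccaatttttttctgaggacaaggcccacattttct
Gzmb: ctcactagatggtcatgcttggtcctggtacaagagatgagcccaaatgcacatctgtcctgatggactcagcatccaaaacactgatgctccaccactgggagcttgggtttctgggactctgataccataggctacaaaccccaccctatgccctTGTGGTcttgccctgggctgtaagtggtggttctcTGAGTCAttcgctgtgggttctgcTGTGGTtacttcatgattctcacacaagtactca

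The RUNX letters occurred in 3 of the 5 member windows, those of Nkg7, Klrk1 and Gzmb, with 2 matches in Gzmb and 1 in each of the other two. They occurred in 14.0% of the 32851 promoter windows of that length in the table. The T-box letters were found in Nkg7 alone of the 5 (3.33% of all windows) and the AP-1 letters in Gzmb alone (6.75% of all windows). None of the 3 motifs overlapped another in these windows, and the windows of Cd8a and Fasl held none of the 3. These matches describe letters and not binding.

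The CD8 chains were both lower in DBA/1, and the beta chain far more so. Cd8b1, the beta chain that marks conventional CD8 T cells, had 1 probe set (1426170_a_at), which read 16.1 in DBA/1 and 199 in C57BL/6. The DBA/1 signal lay under that array's median of 37.6, the floor below which signals were treated as not measured, so the gene was at least 5.30-fold lower in DBA/1 (log2 ratio -2.41, a bound). It was the lowest of the 10 members, and 11 of the 6936 genes had a ratio at or below it. Without a floor the ratio of the signals was 12.4-fold, and with the floor at percentile 60 the bound was a log2 ratio of -1.43.

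Cd8a, the alpha chain that every CD8 molecule needs, stayed close to the floor on both arrays. Its brighter probe set (1451673_at) read 52.9 in DBA/1 and 78.03 in C57BL/6, which was 1.47-fold lower in DBA/1 (log2 ratio -0.56). The dimmer one (1425335_at) read 25.8 in DBA/1, under the floor, and 41.6 in C57BL/6, just over it, a bound of at least 1.11-fold lower. Both probe sets pointed the same way. With the floor at percentile 60 the DBA/1 signal of the brighter probe set lay under the floor, which left a bound of -0.078. Little of the Cd8a difference could thus be measured above that level.

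The log2 ratio of the beta chain was lower than that of the alpha chain by at least 1.85, since the value of Cd8b1 is a bound. Within these arrays, a measurement is repeated only where a gene has more than 1 probe set. For 2325 genes with 2 or more probe sets that exceeded both floors, the log2 ratios of the brightest 2 differed with an SD of 0.43, an error of 0.31 per probe set. Over the 736 pairs that stayed under the 75th percentile of both arrays, where the brighter Cd8a probe set lies, the SD was 0.45. This probe error leaves out the variation between mice, sorts and labelling reactions, and it was not measured for signals under the floor such as that of Cd8b1 in DBA/1. Of the members, only Cd8a and Fasl had more than 1 probe set. The probes were not checked against DBA/1 sequence, so the part of sequence differences between the strains in these ratios was not tested. Cd8a and Cd8b1 lie next to each other on chromosome 6, with 0 protein-coding genes between them in the RefSeq gene order. CD8 alpha is also made by a subset of mouse dendritic cells. All 7 usable dendritic cell markers were higher in DBA/1 (median log2 ratio 1.26), and their part in the Cd8a signal was not tested.

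**Figure D1:**
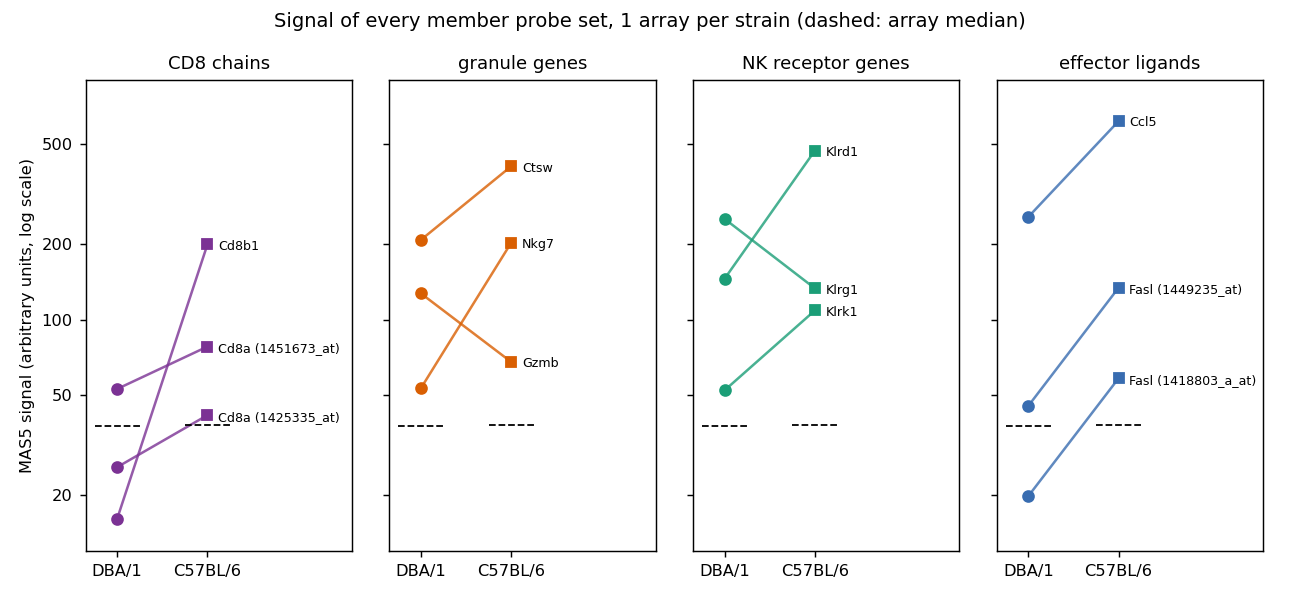
MAS5 signal (log axis, arbitrary units) of the 12 member probe sets on the DBA/1 array (circles, left) and the C57BL/6 array (squares, right), by role; lines join the 2 arrays and dashed bars mark each array's median, 37.6 in DBA/1 and 38.04 in C57BL/6. Lines of Gzmb and Klrg1 slope down towards C57BL/6 and those of the other 8 genes slope up.

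Of the 3 lectin-like receptors, 2 were lower in DBA/1 and 1 was higher. Klrd1 encodes CD94, the partner chain of the NKG2 receptors that bind the class I molecule Qa-1 in mice. Its single probe set read 145 in DBA/1 and 470.3 in C57BL/6, 3.24-fold lower in DBA/1 (log2 ratio -1.69), with 29 genes at or below that ratio. Of the members lower in DBA/1, Klrd1, Ctsw and Ccl5 had both signals far over the floor. The ratio of Klrd1 stayed between -1.80 and -1.50 under the 10 alternative settings that gave it a value.

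Klrk1 encodes NKG2D, an activating receptor for stress-induced ligands. It read 52.3 in DBA/1 and 109 in C57BL/6, which was 2.08-fold lower in DBA/1 (log2 ratio -1.06). The value sits at the edge of the 2-fold limit, and it was -0.74 on the log2(signal + 32) scale. With the floor at percentile 60 the DBA/1 signal lay under the floor, which left a bound of -0.56. In the RefSeq gene order no protein-coding gene lies between Klrd1 and Klrk1 on chromosome 6.

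Klrg1, an inhibitory receptor for cadherins that marks antigen-experienced T cells and mature NK cells, went the other way. It read 251 in DBA/1 and 133 in C57BL/6, 1.89-fold higher in DBA/1 (log2 ratio 0.92), and 4.69% of genes had a ratio at or above it. The range over the alternatives was 0.78 to 0.92. Klrg1 lies on the same chromosome, with 133 protein-coding genes between it and Klrd1.

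The granule-associated members split in the same way. Nkg7, a membrane protein of cytotoxic granules that takes part in their release, read 53.2 in DBA/1 and 202 in C57BL/6, 3.80-fold lower in DBA/1 (log2 ratio -1.92), with 21 genes at or below that ratio. Its DBA/1 signal was close to the floor. With the floor at percentile 60 that signal lay under it, which left a bound of -1.45. Ctsw (cathepsin W), a protease of CD8 T cells and NK cells, read 207 in DBA/1 and 407 in C57BL/6. It was 1.96-fold lower in DBA/1 (log2 ratio -0.97), just short of 2-fold. After median centring, quantile normalization or lowess, 7 members instead of 6 passed 2-fold.

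Gzmb, the granzyme that cleaves caspases in the target cell, was the granule gene with the higher DBA/1 signal. It read 127 in DBA/1 and 67.8 in C57BL/6, 1.87-fold higher in DBA/1 (log2 ratio 0.91), and 4.87% of genes had a ratio at or above it. Over the alternatives its ratio lay between 0.67 and 0.91. With the floor at percentile 60 the C57BL/6 signal of Gzmb lay under the floor, which left a bound of 0.81. The ratios of Gzmb and Klrg1 differed by 0.013, far less than the probe error.

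Both effector ligands were lower in DBA/1. Fasl, which triggers death through Fas on the target cell, had a pair of probe sets. The brighter (1449235_at) read 45.3 in DBA/1 and 134 in C57BL/6, 2.96-fold lower in DBA/1 (log2 ratio -1.56). The dimmer (1418803_a_at) read 19.8 in DBA/1, under the floor, and 58.4 in C57BL/6, a bound of at least 1.56-fold lower. Both probe sets pointed to a lower DBA/1 signal, and the size rests on the brighter one. With the floor at percentile 60 the DBA/1 signal of the brighter one also lay under the floor, which left a bound of -0.86.

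Ccl5, a chemokine that draws T cells and monocytes and is made by memory CD8 T cells and NK cells, read 256 in DBA/1 and 616 in C57BL/6. It was 2.41-fold lower in DBA/1 (log2 ratio -1.27), and 0.923% of genes had a ratio at or below it. Its range over the alternatives was -1.39 to -1.17, so it stayed past 2-fold in each of them.

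Ordered by log2 ratio, the members ran from Cd8b1 through Nkg7, Klrd1, Fasl, Ccl5, Klrk1, Ctsw and Cd8a to Gzmb and Klrg1. Of the 8 gaps between neighbours measured on both arrays, 1 exceeded the probe-pair SD of 0.43, that of Cd8a to Gzmb (1.47). The other 7 neighbouring pairs could not be ordered beyond the probe error. Cd8b1 lay at least 0.48 below Nkg7 with the floor at the array median, and that gap depends on where the floor is set.

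Set against each other, the 2 CD8 chains had a mean log2 ratio of -1.48 and the 6 granule and NK receptor genes a median of -1.01, with a mean of -0.64. The 6 genes ranged from -1.92 to 0.92, and Cd8a, at -0.56, lay within that range while Cd8b1 lay below it. With 1 array per strain and 2 chains that disagree in size, no test of this difference was possible. The granule genes alone (Nkg7, Ctsw and Gzmb) had a median of -0.97, and the receptor genes alone (Klrd1, Klrk1 and Klrg1) one of -1.06.

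**Figure D2:**
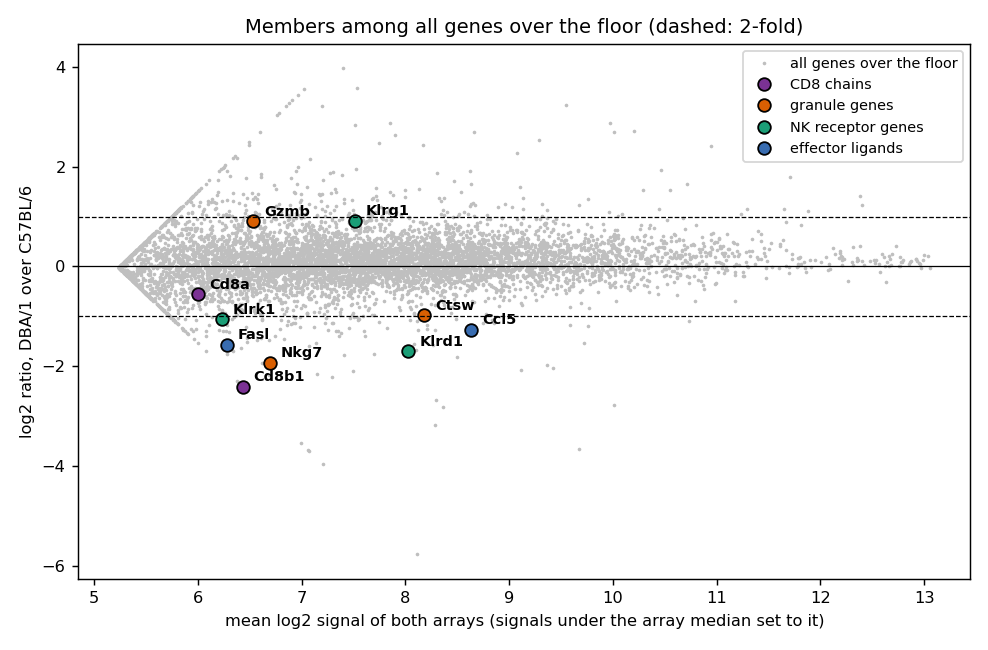
Log2 ratio of DBA/1 over C57BL/6 against the mean log2 signal of both arrays for the 6936 genes over the floor (grey) with the 10 members coloured by role; dashed lines mark 2-fold. 6 members lie under the lower dashed line, Gzmb and Klrg1 lie just under the upper one, and Klrd1, Ctsw and Ccl5 are the brightest of the lower members.

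Genes of the cytotoxic programme outside this set were divided between both directions. The 6 lists of granule, receptor, adapter, cytokine, cytokine receptor and transcription factor genes held 101 genes that were not members, of which 57 were over the floor on at least 1 array. In DBA/1, 29 of these were lower and 28 higher, with a median log2 ratio of -0.0013. Over all genes 39.4% were lower, and the median was 0.10. After median centring the split was 31 lower and 26 higher. Ifng and Il2rb were the 2 at least 2-fold lower, and Lamp2, Klrb1f and Cd244a were the 3 at least 2-fold higher, beside 1.90% and 3.84% of all genes. After median centring these counts were 4 lower and 2 higher, beside 2.41% and 2.91% of all genes. Quantile normalization and lowess each gave 3 lower and 2 higher. On the log2(signal + 32) scale 4 were lower and 2 higher, beside 1.21% and 2.34% of all genes. The mean over probe sets gave 1 lower and 2 higher, beside 1.77% and 3.41%. Without a floor these counts were 6 lower and 3 higher, beside 2.71% and 4.93% of all genes. With the floor at percentile 25 they were 10 lower and 4 higher of 74 genes, beside 4.81% and 5.73% of all genes.

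Among 25 granule and killing genes, 14 were over the floor, 7 of them lower and 7 higher in DBA/1. Prf1 (perforin, the pore-forming protein) read 43.0 in DBA/1 and 60.7 in C57BL/6 (log2 ratio -0.49), and its second probe set was under the floor on both arrays. Gzma was under the floor on both arrays, at 15.4 in DBA/1 and 37.5 in C57BL/6. Of the 10 granzymes listed, 8 were under the floor on both arrays. Besides Gzmb only Gzmk, named after its value was seen, exceeded it, at 1.08 in DBA/1 and 55.1 in C57BL/6, at least 1.47-fold lower in DBA/1. Lamp2, a lysosomal membrane protein made by most cells, read 722 in DBA/1 and 314 in C57BL/6 (2.30-fold higher in DBA/1), and its probe sets over both floors ranged from 0.38 to 1.31 in log2 ratio.

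Of 31 NK receptor genes, 20 had a probe set with 1 gene symbol and 10 were over the floor, 5 lower and 5 higher in DBA/1. The members Klrd1 and Klrk1 were the 2 at least 2-fold lower. Klrb1f, of the NKR-P1 family, read 88.6 in DBA/1 and 16.2 in C57BL/6, where it did not reach the floor, so that it was at least 2.33-fold higher in DBA/1. Cd244a (2B4, a receptor of NK cells and some T cells) read 148 in DBA/1 and 72.3 in C57BL/6, 2.04-fold higher in DBA/1. Genes of the Klra and Klrb1 families are near-identical in places, so their probe sets may share targets. The sign of this list's median changed with the setting, from -0.22 to 0.033.

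Cytokines, receptors and regulators of cytotoxic lymphocytes went both ways. Ifng (interferon gamma) read 66.0 in DBA/1 and 173 in C57BL/6, 2.62-fold lower in DBA/1. Xcl1 (lymphotactin) read 11.4 in DBA/1, under the floor, and 72.6 in C57BL/6, at least 1.93-fold lower. Ccl3, a chemokine made by T cells and myeloid cells, read 115 in DBA/1 and 58.4 in C57BL/6 (1.97-fold higher in DBA/1). Tnf, named after its value was seen, was also higher (log2 ratio 0.84). Of the 7 cytokine and chemokine genes over the floor, Ccl5 included, 4 were lower and 3 higher in DBA/1.

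Il2rb, the beta chain shared by the interleukin 2 and 15 receptors, read 201 in DBA/1 and 483 in C57BL/6 (2.41-fold lower in DBA/1), while its other probe set gave a log2 ratio of -0.46. Cxcr3, a chemokine receptor of T helper 1 and cytotoxic cells, read 428 in DBA/1 and 713 in C57BL/6 (log2 ratio -0.74). Il18r1, a chain of the interleukin 18 receptor, was higher in DBA/1, at 751 in DBA/1 and 389 in C57BL/6 (log2 ratio 0.95). Ccr2, a chemokine receptor of monocytes and effector T cells, was also higher in DBA/1 (log2 ratio 0.74).

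The T-box factors that drive cytotoxic genes were dim on both arrays. Tbx21 (T-bet) read 59.2 in DBA/1 and 117 in C57BL/6 (log2 ratio -0.98). Eomes read 23.2 in DBA/1, under the floor, and 47.6 in C57BL/6, a bound of -0.34. The 5 probe sets of Runx1 disagreed in direction: the one that represents the gene read 65.8 in DBA/1 and 110.01 in C57BL/6 (log2 ratio -0.74), and another read 91.1 in DBA/1 and 62.2 in C57BL/6 (0.55), so no direction is given for it. Runx3, the RUNX factor of CD8 T cells, was under the floor on both arrays. Nfil3 and Prdm1, regulators of NK cell development and effector differentiation, were higher in DBA/1, with log2 ratios of 0.49 (a bound) and 0.43. Prdm1 read 38.98 in C57BL/6, just over the floor, and its ratio did not exceed the probe-pair SD. Of the 14 transcription factor genes over the floor, 9 were lower and 5 higher in DBA/1. None of the 14 reached 2-fold in either direction on the deposited scale, and 1 was at least 2-fold lower after each of the 3 scalings.

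The median log2 ratio of 12 usable genes of receptor adapters and signalling was 0.24. Zap70, the kinase of the T cell receptor, was lower in DBA/1 (log2 ratio -0.67), while its other probe set gave a log2 ratio of -0.31. Tyrobp (DAP12, an adapter of NK and myeloid receptors), Syk and Plcg2, which B cells and myeloid cells also use, were higher (0.83, 0.80 and 0.88). B cell markers had a median of 1.08 and monocyte and macrophage markers one of 0.90 beside them.

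**Figure D3:**
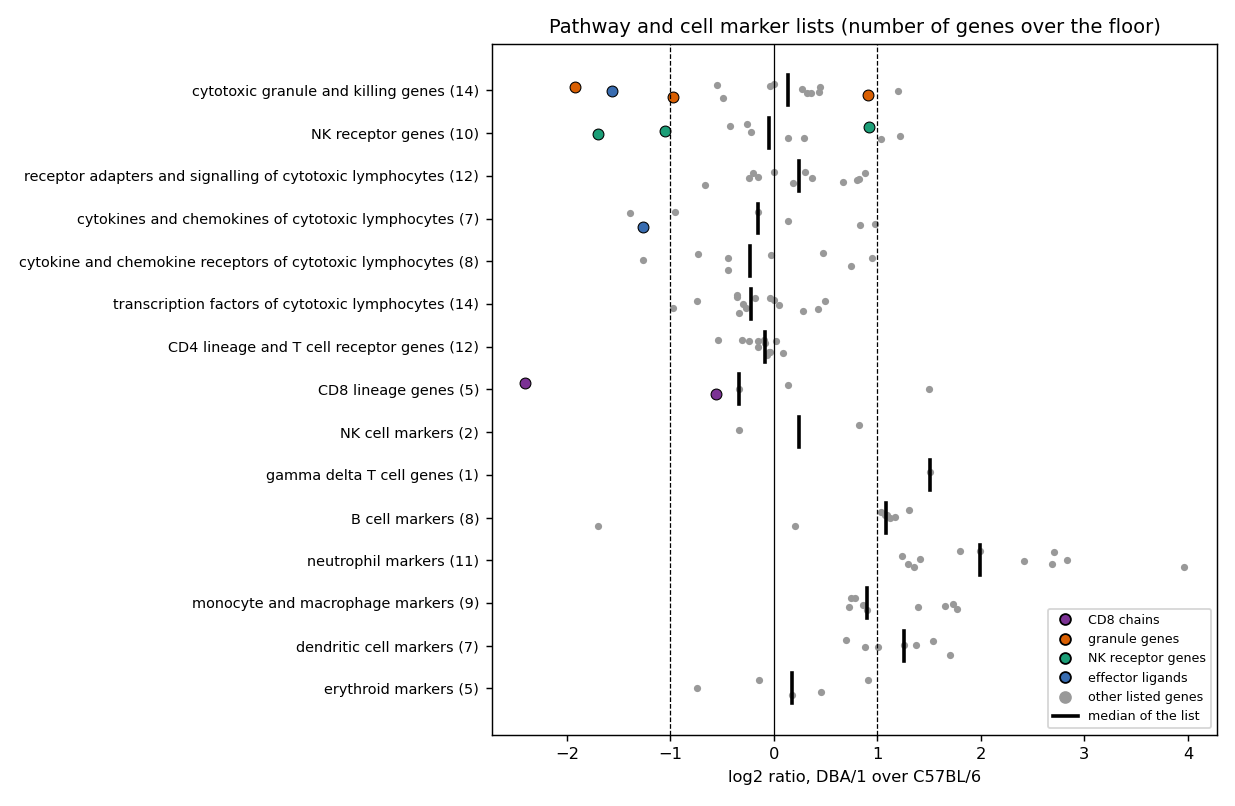
Log2 ratio of DBA/1 over C57BL/6 for every gene over the floor in 6 pathway lists and 9 cell marker lists, with members coloured by role, other genes in grey and a black bar at the median of each list; vertical jitter carries no value and dashed lines mark 2-fold. The coloured members lie mostly left of 0 while the grey genes of their own lists lie on both sides, and the neutrophil, monocyte, dendritic and most B cell markers lie to the right.

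Markers of the sorted cells and of other cell types bear on how these values read, because a bulk sample cannot tell fewer cells of a type apart from less RNA per cell. Cd4 read 913 in DBA/1 and 857 in C57BL/6 (log2 ratio 0.092), and its second probe set lay at -0.060. Cd3e, a chain of the CD3 complex, read 747 in DBA/1 and 791 in C57BL/6. By their brightest probe sets, all 12 measured CD4 lineage and T cell receptor genes were over the floor, 10 lower and 2 higher in DBA/1, between -0.54 and 0.092, with summed signals of 15402 in DBA/1 and 16719 in C57BL/6. Both arrays thus held the transcripts of the labelled cell type, and Thy1 (-0.54) was the lowest of the list by these probe sets. Another probe set of Cd247, the zeta chain of the receptor complex, read 193 in DBA/1 and 424 in C57BL/6 (log2 ratio -1.13), against -0.24 for the probe set that represents the gene. That ratio is lower than those of Cd8a, Ctsw and Klrk1.

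Of 6 CD8 lineage genes, 5 were over the floor, 3 lower and 2 higher in DBA/1. The summed signals of all 6, those under the floor included, were 282 in DBA/1 and 406 in C57BL/6. Itgae, the integrin chain CD103 of CD8 T cells, regulatory T cells and dendritic cells, ran against the CD8 chains, at 123 in DBA/1 and 43.6 in C57BL/6, 2.82-fold higher in DBA/1. The share of CD8 T cells in the sorted samples was not measured, and its part in the member differences was not tested.

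Of 10 NK cell markers, 6 had a probe set and 4 of these (Ncr1, Klra8, S1pr5 and Gzma) were under the floor on both arrays. Ncr1, which encodes the NK receptor NKp46, read 18.2 in DBA/1 and 4.26 in C57BL/6. The other two were Tyrobp, which myeloid cells also express, and Eomes. The summed signal of the list was 2439 in DBA/1 and 1439 in C57BL/6, nearly all of it from Tyrobp.

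Genes of myeloid and B cells were higher in DBA/1 beside these values. All 11 neutrophil markers were at least 2-fold higher (median log2 ratio 1.99, summed signals 35312 in DBA/1 and 10684 in C57BL/6), as were 6 of 8 B cell markers, while Cd72 was lower (-1.70). The B cell count was 4 after each of the 3 scalings and with the floor at percentile 60, 3 with a minimum signal at percentile 75 and 1 with log2(signal + 32). All 9 monocyte and macrophage markers were higher (median 0.90). The erythroid median was 0.18 over 5 genes. Of the gamma delta T cell list only Blk, also a B cell gene, exceeded the floor, with a DBA/1 signal at least 2.85-fold higher. The part of these cells in the member differences was not tested.

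**Figure D4:**
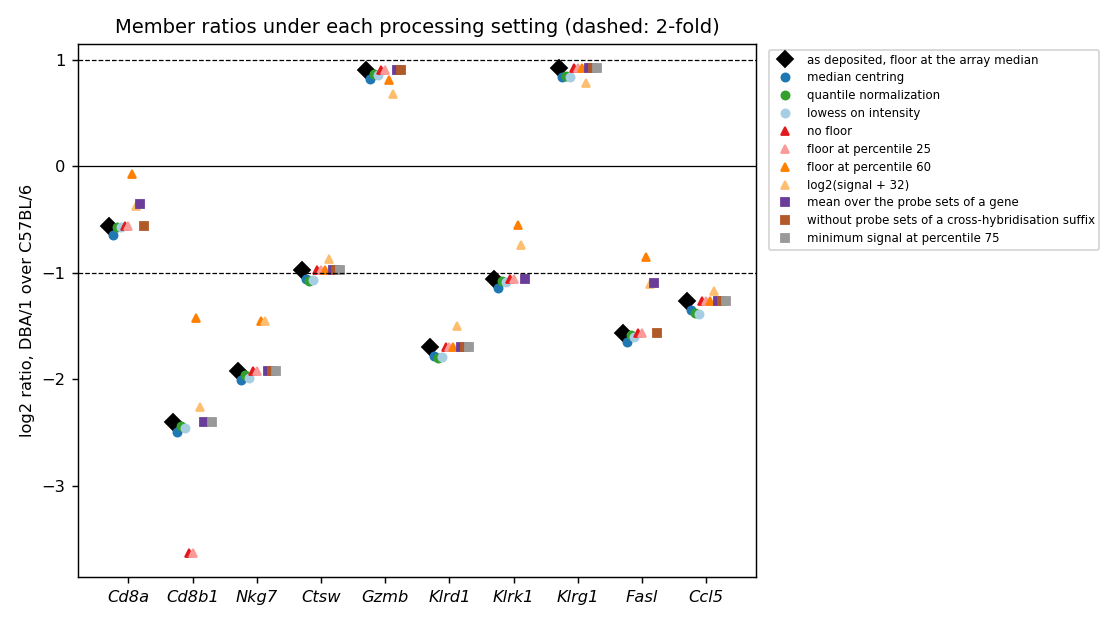
Log2 ratio of DBA/1 over C57BL/6 of each member under the deposited values with the array-median floor (black diamonds) and the 10 alternative settings (coloured symbols); dashed lines mark 2-fold. Each member keeps its sign, Klrd1, Ctsw, Ccl5, Gzmb and Klrg1 vary little, and Cd8b1 runs from -3.63 without a floor to -1.43 with the floor at percentile 60.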

How the data were processed

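The authors deposited 1 intensity per probe set and array on a linear scale, without detection calls. MAS5, an Affymetrix summary of perfect-match and mismatch probes, made these signals per the submitters' processing notes, but the sources used here give neither its version nor its scaling target. The cRNA came from 3 µg of total RNA primed with oligo(dT), per the labels' protocols, so signals weigh the 3' ends of transcripts. After trimming 2% at each end, the mean signal was 146 in DBA/1 and 136 in C57BL/6, and probe sets exceeding both floors had a median log2 ratio of 0.085. No coordinates beyond the RefSeq promoter windows and the RefSeq gene order were used.

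Of 22690 probe sets, 64 were controls, 20380 had 1 gene symbol in the platform annotation, 691 several and 1555 none. Symbols were updated through Entrez identifiers, which matched RefSeq (GRCm38.p6) for 20351 probe sets. Signals under each array's median (37.6 in DBA/1, 38.04 in C57BL/6) were set to it, and log2 ratios of DBA/1 over C57BL/6 were taken with Python 3.11.15, pandas 2.3.3 and statsmodels 0.14.6. A ratio with 1 side under the floor is a bound, written "at least". A gene was represented by its probe set of highest mean log2 signal, and a gene counted as over the floor if that probe set exceeded it on 1 array or both. With 1 array per strain no p-value exists, and the number of arrays limits the precision. The calculation was tested on simulated data in which only bright probe sets were changed. That test did not cover signals under the floor, the mean over probe sets, the omission of suffixed probe sets or the minimum signal.

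The members and lists were chosen with earlier results of these data known. Named are all members, the 4 genes of largest absolute ratio in each list, and Cd4, Cd3e, Prf1, Gzma, Tbx21, Eomes and Ncr1; some of these are given only as part of their list's count or range. No gene was named for a similar pattern, since 2 arrays give 1 ratio per gene. Alternatives were median centring, quantile normalization, lowess (span 0.3), floors at percentiles 25 and 60 or none, log2(signal + 32), the mean over probe sets, omission of probe sets with the suffix _a, _s or _x, a minimum signal at percentile 75 on 1 array or both, and a limit of 1.5-fold.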

Additional observations from a re-analysis of the deposited data

How the results depend on the processing

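No paired analysis was possible because each strain has 1 array and the labels carry no replicate numbers. The number of members at least 2-fold lower in DBA/1, 6 as reported, was 7 after each of the 3 scalings and with a limit of 1.5-fold, 5 with log2(signal + 32), and 4 with the floor at percentile 60, with the minimum signal (6 members left) and without the suffixed probe sets (8 members left). The number at least 2-fold higher, 0 as reported, was 2 with a limit of 1.5-fold and 0 under the other alternatives. The mean log2 ratio of the CD8 chains, -1.48 as reported, was -2.09 without a floor and with the floor at percentile 25, -0.75 with the floor at percentile 60, -0.56 without the suffixed probe sets, which leaves Cd8a alone, and -2.41 with the minimum signal, which leaves Cd8b1 alone. The median of the granule and NK receptor genes, -1.01 as reported, was -1.33 with the minimum signal, which leaves Nkg7, Ctsw, Klrd1 and Klrg1. The median of the CD8 lineage list, -0.34 as reported, was 0.12 with the floor at percentile 25, at which Runx3 enters the list's usable genes. Of 94 recomputed member ratios, 83 moved by less than the probe error of 0.31, 11 moved by more and 0 changed sign. Signals near the floor, those of Cd8a, Cd8b1, Nkg7, Klrk1 and Fasl in DBA/1, limit the size that can be given to their differences. With the floor at percentile 60 each of these DBA/1 signals lay under it, so the ratios of these genes were bounds there. The ratio of Gzmb was also a bound there, through its C57BL/6 signal.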
